A study of Homo sapiens with 6 samples.

Results

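Metallothioneins and zinc transporters are the proteins that set how much free zinc a cell's cytosol holds. The group was taken by symbol from the protein-coding genes of GENCODE 29: MT1 genes with a single-letter suffix, MT2A, the SLC30A and SLC39A families and the transcription factor MTF1. This gave 34 of 60616 genes, namely 9 metallothioneins, 10 SLC30A genes, 14 SLC39A genes and MTF1. RNA was sequenced in wild-type 12Z cells, an immortalized line from human endometriosis that is grown here as a single line in medium with 10% charcoal-stripped serum. Of the 6 libraries, 3 came from cells given frankincense extract at 70 ug/mL in DMSO for 12 h and 3 from cells given DMSO, the vehicle. Frankincense is the resin of Boswellia trees, and the labels do not give the composition of the extract. Whether the 3 replicates of a group came from separate cultures is not stated, so the p-values measure the spread between libraries, part of which may be technical.

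Zinc enters the cytosol from outside the cell or from organelles through SLC39A proteins, called ZIPs. SLC30A proteins, called ZnTs, mostly move it the other way, out of the cell or into organelles and vesicles. Exporter and importer here name these families, not a measured direction for each member. Metallothioneins are small cysteine-rich proteins that hold zinc, copper and cadmium in clusters, and so buffer the free metal. MTF1 binds zinc and then switches on metallothionein genes and SLC30A1 through short promoter elements called metal response elements, while it represses SLC39A10.

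The metal response element has the 7-base core TGCACNC or TGCGCNC. Windows from 250 bases before to 50 bases after the start of each gene were read from RefSeq (GRCh38.p14), which held 35 windows for 26 of the 34 genes. The core was searched on both strands, and each match was counted even where it overlapped another. The upstream 250 bases are printed here for the metallothioneins that have a window and for SLC30A1, 5′ to 3′ on the strand of the gene, with matches in capitals. They show 2 metallothioneins with high RNA levels (MT2A, MT1X), 1 with a few reads (MT1H), 1 with none (MT1B) and the plasma membrane exporter.
MT2A, chr16:56608334-56608583, plus strand: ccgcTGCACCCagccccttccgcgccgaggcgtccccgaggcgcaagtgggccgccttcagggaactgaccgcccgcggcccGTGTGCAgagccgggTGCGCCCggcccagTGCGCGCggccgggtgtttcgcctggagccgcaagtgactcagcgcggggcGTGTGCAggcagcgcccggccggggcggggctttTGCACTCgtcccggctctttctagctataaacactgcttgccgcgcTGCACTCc
MT1X, chr16:56682220-56682469, plus strand: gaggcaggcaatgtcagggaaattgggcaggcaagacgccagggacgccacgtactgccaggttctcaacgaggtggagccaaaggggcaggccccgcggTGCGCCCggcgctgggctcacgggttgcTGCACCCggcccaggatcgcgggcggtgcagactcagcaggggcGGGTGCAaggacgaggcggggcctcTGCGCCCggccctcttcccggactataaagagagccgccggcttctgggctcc
MT1H, chr16:56669564-56669813, plus strand: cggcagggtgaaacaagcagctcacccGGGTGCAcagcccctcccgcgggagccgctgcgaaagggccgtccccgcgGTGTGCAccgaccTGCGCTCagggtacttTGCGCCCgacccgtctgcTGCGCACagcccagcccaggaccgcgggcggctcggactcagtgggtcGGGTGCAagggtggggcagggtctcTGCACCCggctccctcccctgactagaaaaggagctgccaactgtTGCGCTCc
MT1B, chr16:56651636-56651885, plus strand: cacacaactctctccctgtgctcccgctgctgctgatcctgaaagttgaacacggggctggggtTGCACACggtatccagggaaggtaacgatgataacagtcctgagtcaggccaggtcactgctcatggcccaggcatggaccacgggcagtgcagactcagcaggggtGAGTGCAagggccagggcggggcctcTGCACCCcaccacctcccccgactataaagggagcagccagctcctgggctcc
SLC30A1, chr1:211579162-211579411, minus strand: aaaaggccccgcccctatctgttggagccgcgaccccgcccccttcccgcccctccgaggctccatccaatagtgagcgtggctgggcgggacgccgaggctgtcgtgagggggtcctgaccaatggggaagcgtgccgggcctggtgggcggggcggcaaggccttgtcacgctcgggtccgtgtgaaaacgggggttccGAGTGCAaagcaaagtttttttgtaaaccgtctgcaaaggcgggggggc

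These 250 bases held 7 matches in MT2A, 8 in MT1H, 4 in MT1X, 3 in MT1B and 1 in SLC30A1. Of all 35116 RefSeq windows, 24.8% held at least 1 match in the same 250 bases, 1.58% at least 3 and 0.0313% at least 7. In the whole 300-base windows, 16 of the 26 genes had at least 1 match, and 33.4% of all symbols with a window did. SLC30A2, an exporter of secretory vesicles, had 3 matches. The 10 genes with 0 matches were MTF1, SLC30A5, SLC30A7, SLC30A9, SLC30A10, SLC39A2, SLC39A7, SLC39A9, SLC39A11 and SLC39A12. A match is a stretch of letters and not a measured binding site. MT2A, MT1X, SLC30A1, SLC30A2, SLC30A3, SLC30A4, SLC30A6, SLC39A6 and SLC39A13 had matches and were called higher. MTF1, SLC30A5, SLC30A7, SLC30A9, SLC39A7 and SLC39A11 had 0 matches and were also called higher. SLC39A8 and SLC39A10, both called lower, had 1 match each. SLC39A1, SLC39A3 and SLC39A5 had matches and were not called. MT1B had 3 matches and no reads, and MT1H had 8 and was not tested. MT1E, MT1F, MT1G and MT1M, which rose, had no window. Whether the matches have a part in the changes was not tested.

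The libraries held 22615150 to 27615196 expected counts. Where a gene had 0 counts in a library, up to 3 counts are allowed by counting error, which stand for 0.109 to 0.133 CPM (counts scaled to library size) per library. Intervals and limits cover counting error only. Frankincense replicate 3 stood apart on the second principal component, which held 7.99% of the variance, at 27.6 against -8.0 and -19.9 for the other treated libraries. Across the 16719 genes tested its deviation from them went with gene length, with a Spearman's rho of 0.30. Across the 27 tested genes of the group that rho was 0.67, a description over genes that share these libraries. Metallothionein RNAs are short, and for those with counts in every library the change is also given without it. The line carried some markers of epithelial and of mesenchymal cells. TPM are transcript levels adjusted for length and scaled to a common total per library. In the vehicle cells KRT8 and KRT18, both keratins, stood at 771 and 661 TPM and vimentin (VIM) at 2048 TPM. Other members of these lists were low there, with KRT7 at 5.84, EPCAM at 1.12 and PDGFRA at 2.76 TPM. The epithelial cadherin CDH1 had 14 counts in all 3 vehicle libraries. Of 6 epithelial markers 5 were tested, with 2 higher and 3 lower, and of 6 mesenchymal markers 1 was higher and 5 lower. For comparison, 31.9% of all genes tested were called higher and 31% lower. The summed levels went from 1574 to 1605 TPM under vehicle to 1361 to 1419 TPM under frankincense for the epithelial list, and from 2307 to 2418 TPM to 2124 to 2181 TPM for the mesenchymal list. VIM, at means of 2048 and 1969 TPM, makes up most of the mesenchymal sum, which hides larger falls. The log2 fold changes of counts were -1.76 for DCN, -1.49 for PDGFRA, -1.45 for THY1 and -1.04 for PDGFRB, against -0.30 for VIM and 0.28 for CDH2. In the epithelial list KRT7 and EPCAM rose, while KRT8, KRT18 and KRT19 fell. The 4 immune markers summed to 2.09 to 3.02 TPM and then 0.35 to 0.67 TPM, with CD14 lower, PTPRC not called and CD3E and MS4A1 at 0 counts. Both smooth muscle markers were lower, at sums of 0.60 to 0.91 TPM and 0.31 to 0.45 TPM. The 3 endothelial markers summed to at most 0.27 TPM with CDH5 at 0 counts, and HBB of red cells was at 0 counts. The part of these shifts in the results was not tested. In bulk RNA, fewer cells of a type and less RNA per cell cannot be told apart.

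Of the 34 genes, 27 passed the filter on low counts and were tested with edgeR over all genes. Metallothionein and SLC30A genes were called higher in every tested case, while SLC39A genes went both ways. The call of SLC30A9 was lost with DESeq2 and on leaving out some single libraries. In all, 22 of the 27 were called at adjusted p under 0.05, against 62.9% of all genes tested. Of these, 20 were higher and 2 lower, and 5 genes were not called. Over all genes tested, 31.9% were called higher and 31% lower. CPM values of both groups did not overlap for 22 of the 27, against 67.5% of all genes tested. A call with a change of at least 1.5-fold was made for 15 of the 27, against 28.3%. At least 2-fold rises were called for 8 of the 27, against 5.14% of all genes tested, and a fall of that size for 1, against 7.11%. MT1G, MT1M, SLC30A2 and SLC39A5 passed the filter through the frankincense libraries alone, which favours a rise. Among the 23 genes that reached the filter level in all 3 vehicle libraries, 17 were higher, 2 lower and 4 not called, with a median log2 change of 0.56 and at least 2-fold rises in 5. The 15775 genes that did so over the whole table had 32.1% higher, 32.8% lower, a median of -0.02 and at least 2-fold rises in 630.

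Levels are given here in TPM and changes as log2 fold changes of counts ± SE, frankincense over vehicle. The scales differ: the median log2 change of all genes was -0.002 in the count test and 0.20 on the log2(TPM + 1) scale, so ratios of TPM run higher than count-based folds. Of all calls, 50.7% were higher in the count test and 74.8% on that TPM scale, where the group had 21 genes higher and 1 lower. Among called genes the value on that scale was over 1.5 times larger for SLC39A6 (0.70), SLC39A13 (0.59), SLC39A14 (0.51) and SLC30A9 (0.35), and over 1.5 times smaller in size for SLC39A10 (-0.76) and SLC39A8 (-0.17). It was also larger for MTF1 (0.50) and SLC30A4 (0.84) with a pseudocount of 0.1. The fitted values of MT1G and SLC30A2, which had 0 and 1 vehicle counts, depend on the constant added and are not printed.

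**Figure D1:**
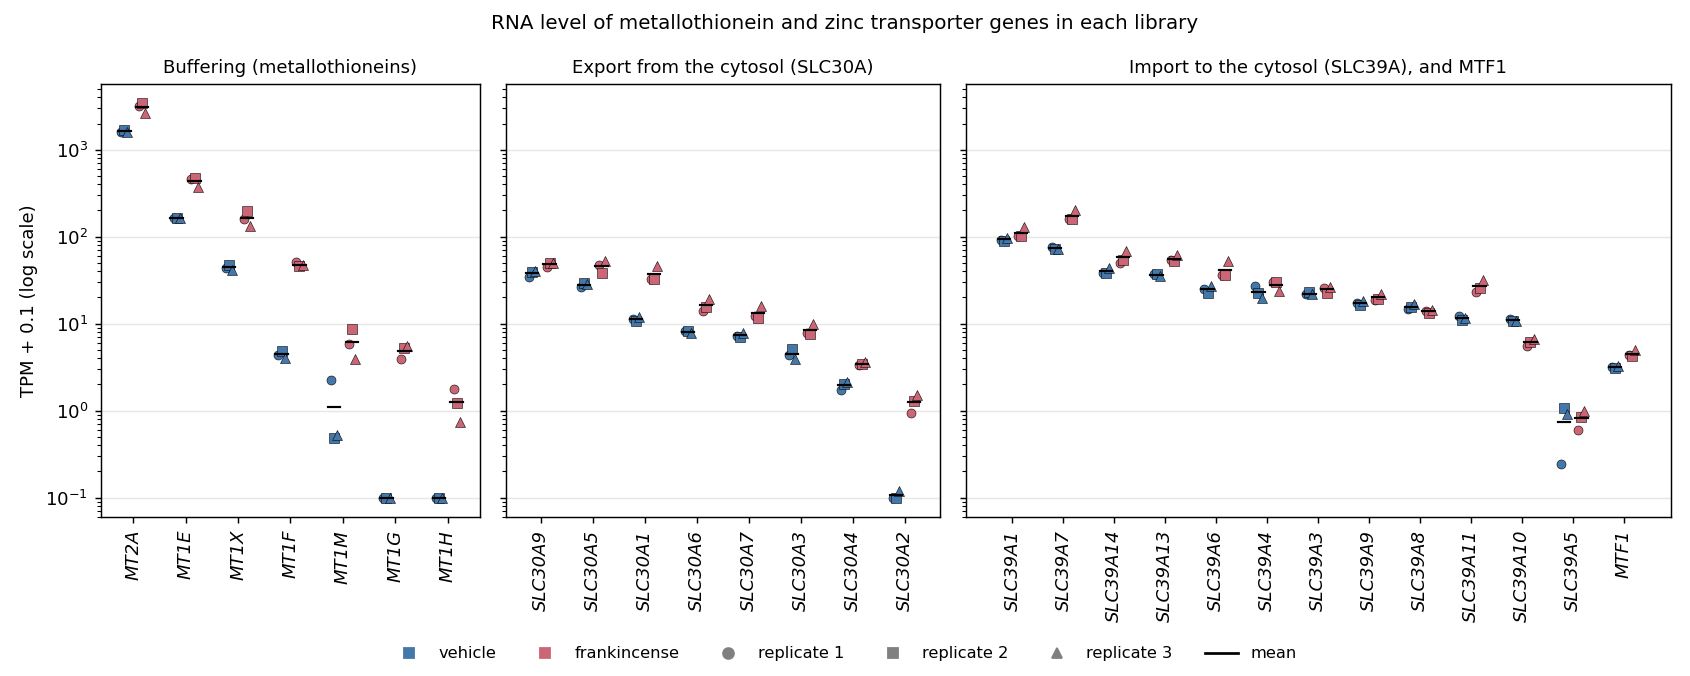
RNA level of each gene in each library, as TPM + 0.1 on a log axis, for the genes with more than 1 count over the 6 libraries; symbols mark the replicate, colours the group and bars the group mean. MT2A lies above all other genes of the group, and MT1G, MT1H and SLC30A2 lie at or near 0 in the vehicle libraries.

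Metallothioneins rose in all 6 tested genes of this class, against 31.9% of all genes tested called higher. Of the 6, MT1G and MT1M passed the filter through the frankincense libraries alone, which favours a rise. MT2A, MT1E, MT1X and MT1F reached the filter level in all 3 vehicle libraries. All 4 were higher, against 32.1% of all genes that reached that level. MT2A, the most abundant member of the family, stood at 1612, 1692 and 1612 TPM in the vehicle libraries and at 3162, 3413 and 2638 TPM in the frankincense libraries. The groups did not overlap, and replicate 3 was the lowest treated library. The count-based change was 0.62 ± 0.12 (edgeR adjusted p = 0.00165), a 1.53-fold rise, and 0.76 without frankincense replicate 3. MT2A (ENSG00000125148) spans 56608199 to 56609497 on chromosome 16 (GRCh38) and opens a 76 kb cluster that holds all 9 metallothionein genes of the group, up to MT1X.

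MT1E (ENSG00000169715; chromosome 16, 56625475 to 56627112) stood at 164.6, 164.1 and 165.7 TPM in vehicle cells and at 455, 471 and 372 TPM after frankincense. All treated values lay above all vehicle values, with replicate 3 again the lowest. Its change was 1.17 ± 0.12 (edgeR adjusted p = 0.00011), 2.25-fold, and 1.32 without that library. MT1X (ENSG00000187193; chromosome 16, 56682424 to 56684196), another inducible isoform, went from 43.9, 47.5 and 41.1 TPM to 160, 197 and 131 TPM. This is a rise of 1.65 ± 0.18 (edgeR adjusted p = 0.00012), 3.14-fold, with no overlap and the lowest treated value in replicate 3. Without that library it was 1.83.

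MT1F (ENSG00000198417; chromosome 16, 56657694 to 56660698) had the largest rise among metallothioneins with at least 10 counts in every library. It stood at 4.29, 4.76 and 3.97 TPM under vehicle and at 51.0, 45.6 and 46.5 TPM under frankincense. The treated libraries lay close together here, replicate 3 included, and far above the vehicle ones. The change was 3.02 ± 0.16 (edgeR adjusted p = 7.5e-10), an 8.09-fold rise, and 3.09 without frankincense replicate 3. MT1M had 9, 2 and 2 counts in the vehicle libraries and 24, 34 and 14 in the frankincense libraries. Its groups did not overlap, but vehicle replicate 1 gave most of the vehicle counts. The change was 2.44 ± 0.55 (edgeR adjusted p = 0.00189), 5.41-fold. Leaving out single libraries gave 2.04 (without vehicle replicate 2) to 3.59 (without vehicle replicate 1), and 2.71 without frankincense replicate 3, all called.

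Other MT1 genes were found in treated cells alone or in no library. MT1G had 0 counts in each vehicle library and 17, 21 and 21 counts in the treated ones, with no overlap. Against a floor of 3 counts over the vehicle group it was at least 19.8-fold higher (edgeR adjusted p = 5.04e-06). MT1H had 0 counts in each vehicle library and 7, 5 and 3 counts after frankincense, at least 5.04-fold higher against the same floor. It did not pass the filter and was not tested. MT1A and MT1B had 0 counts in all 6 libraries. The median log2 change of the 6 tested metallothioneins was 2.04, also with MT1G at its bound, and 1.41 for the 4 that reached the filter level in all vehicle libraries, against -0.002 for all genes tested.

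Summed over the family, metallothionein RNA stood at 1827, 1909 and 1824 TPM in the vehicle libraries and at 3839, 4142 and 3197 TPM in the treated ones. The treated sums lay above all vehicle sums, and the mean was 2.01 times as high, or 1.79 times in CPM. MT2A made up 88.4% ± 0.21 of the vehicle sum and 82.4% ± 0.073 of the treated sum (SD, n = 3). The share of MT1E went from 8.90% ± 0.26 to 11.6% ± 0.24, that of MT1X from 2.38% ± 0.12 to 4.35% ± 0.36, and that of MT1F from 0.234% ± 0.016 to 1.29% ± 0.18. MT1E, MT1X and MT1F took a larger part of the family's RNA after treatment, and MT2A a smaller one. These shares carry no test.

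Metallothionein copies are similar in sequence, and the authors' counting can divide reads between them. The deposited counts of all 9 genes were whole numbers in all 6 libraries, within 0.005 of an integer, so they show no fractions of reads divided between copies. This does not show that each read was placed on the right copy. Among the transporters, SLC30A5, SLC39A1, SLC39A3 and SLC39A7 had counts that were not whole in every library. Part of their reads may be divided with other genes. Of 12 other metallothionein genes and pseudogenes in the table, none passed the filter. Each held at most 2 counts in either group, and adding them left the summed levels at 1855 and 3728 TPM.

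Within 500 kb on either side of the cluster, 16 other genes were tested, of which 6 were called higher, 6 lower and 4 not called, with a median log2 change of -0.25. Over all genes tested, 31.9% were higher and 31% lower, close to the neighbours' counts. The nearest named genes were BBS2, a ciliary protein gene, at -0.25 ± 0.050, NUP93, a nuclear pore gene, at 0.098 ± 0.048 (edgeR adjusted p = 0.0859), and OGFOD1, a prolyl hydroxylase gene, at 0.63 ± 0.051. HERPUD1, a stress-induced gene of the endoplasmic reticulum that starts 248 kb past the cluster, rose by 1.66 ± 0.052. The 16 are not all separate loci. ENSG00000261270 and ENSG00000261114, both called higher, lie within HERPUD1 on its strand and may share its reads. ENSG00000279019 and ENSG00000279803, neither called, lie within CPNE2, which was called lower. With TPM in place of counts, 7 neighbours were higher and 1 lower, and the median turned to 0.05. No test of the difference between cluster and neighbours was run.

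**Figure D2:**
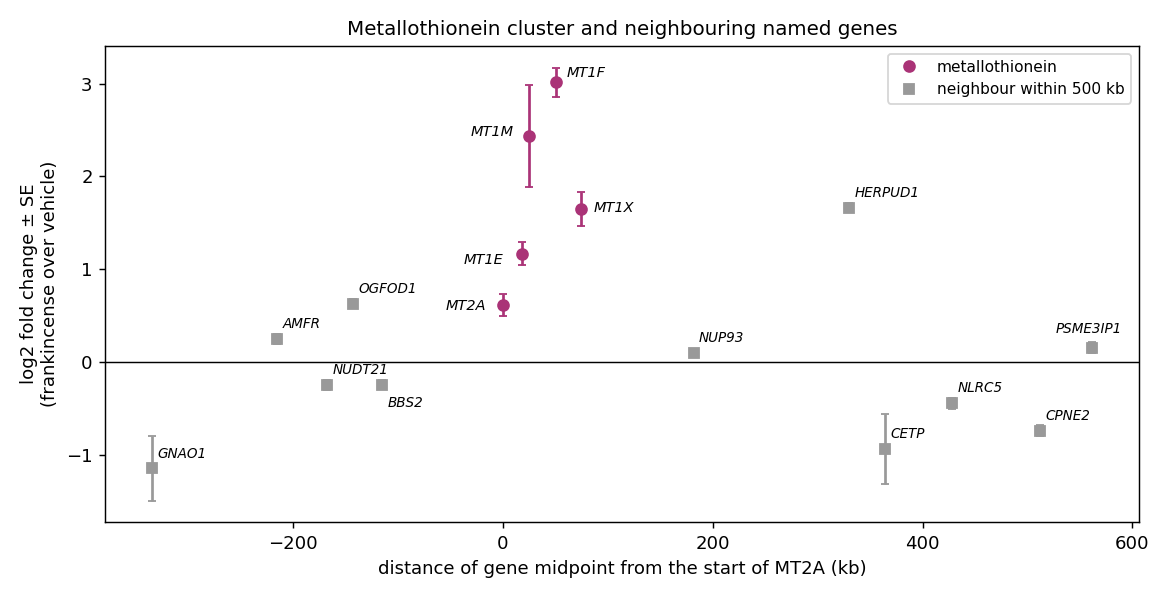
Log2 fold change ± SE by distance of each gene's midpoint from the start of MT2A, for metallothioneins with counts in both groups and for named genes within 500 kb. The 5 metallothioneins lie between 0.62 and 3.02, and the neighbours lie on both sides of 0, with HERPUD1 the highest at 1.66.

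Exporters rose in all 8 tested SLC30A genes, against 31.9% of all genes tested called higher, with a median log2 change of 0.69. SLC30A2, which had almost no vehicle counts, passed the filter through the frankincense libraries alone, which favours a rise. The other 7 reached the filter level in all 3 vehicle libraries. All 7 were higher, with a median of 0.67, against 32.1% higher among all genes that reached that level. SLC30A1, or ZnT1, the zinc exporter of the plasma membrane, stood at 11.2, 10.6 and 11.9 TPM in vehicle cells. After frankincense it stood at 32.3, 32.3 and 45.6 TPM, above all vehicle values and highest in replicate 3. The rise was 1.46 ± 0.10 (edgeR adjusted p = 1.34e-06), 2.74-fold, and 1.34 without frankincense replicate 3. The gene (ENSG00000170385) spans 211571568 to 211578742 on chromosome 1. Its share of the summed exporter TPM went from 11.4% to 21.0%.

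SLC30A2, or ZnT2, loads zinc into secretory vesicles and is known for its role in milk zinc. It had 0, 0 and 1 counts in the vehicle libraries and 48, 64 and 71 counts in the treated ones, which do not overlap. The ratio of the summed counts, each scaled by the TMM-adjusted library sizes of the count test, was 184, with an exact 95% counting interval of 32.7 to 7330. The level after treatment stayed low, at 0.83, 1.19 and 1.42 TPM, and the edgeR adjusted p was 3.39e-08.

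Transporters of the Golgi and early secretory pathway, SLC30A5, SLC30A6 and SLC30A7, supply zinc to enzymes such as alkaline phosphatases. SLC30A5 went from 26.4, 29.3 and 28.2 TPM to 47.6, 37.8 and 53.1 TPM, a rise of 0.67 ± 0.084 (edgeR adjusted p = 1.91e-05). Its partner SLC30A6 went from 8.07, 8.03 and 7.67 TPM to 13.9, 15.4 and 19.3 TPM, a rise of 0.76 ± 0.073 (edgeR adjusted p = 4.43e-07). SLC30A7 went from 7.17, 6.99 and 7.74 TPM to 12.2, 11.6 and 16.0 TPM, a rise of 0.60 ± 0.079 (edgeR adjusted p = 2.51e-05). In none of the 3 did the groups overlap, and replicate 3 was the highest treated library in each. Without it the rises were 0.58, 0.68 and 0.50.

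SLC30A3, a vesicle transporter known from synapses, went from 4.26, 5.01 and 3.80 TPM to 7.80, 7.54 and 9.70 TPM. The groups did not overlap, and the rise was 0.71 ± 0.095 (edgeR adjusted p = 1.43e-05). SLC30A4, an endosomal transporter, stood at 1.63 to 2.01 TPM under vehicle and at 3.27 to 3.55 TPM under frankincense, a rise of 0.56 ± 0.10. SLC30A9, a mitochondrial member and the most abundant of the family in vehicle cells, stood at 34.2 to 39.9 TPM and then at 44.79 to 49.97 TPM. Its change was 0.14 ± 0.053 (edgeR adjusted p = 0.0391), and the call rested on few libraries. Leaving out vehicle replicate 1 gave 0.094 (edgeR adjusted p = 0.221) and vehicle replicate 2 gave 0.13 (adjusted p = 0.102). Leaving out frankincense replicate 1 gave 0.14 (edgeR adjusted p = 0.0624) and frankincense replicate 2 gave 0.13 (adjusted p = 0.0885), and DESeq2 gave an adjusted p of 0.0752. Library size scaling gave 0.21 and kept the call. SLC30A8, the insulin granule transporter of pancreatic beta cells, and SLC30A10, a manganese exporter, had 0 counts in all 6 libraries.

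**Figure D3:**
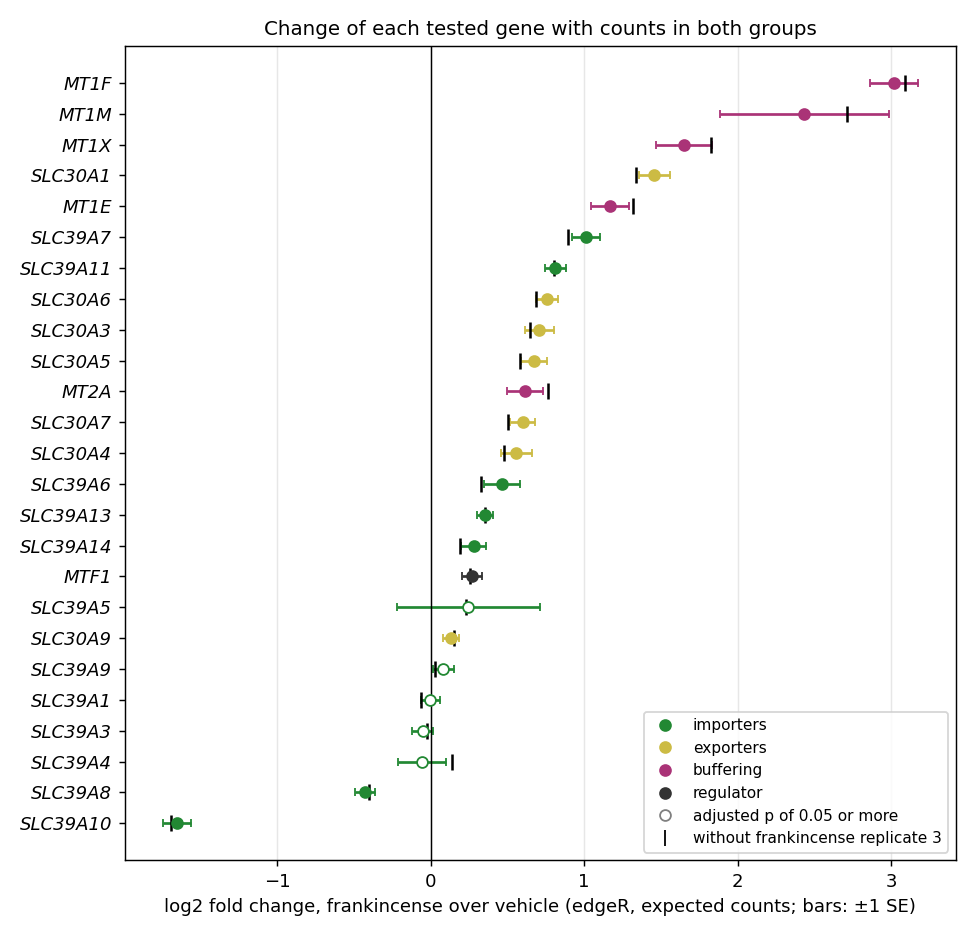
Log2 fold change ± 1 SE of the tested genes other than MT1G and SLC30A2, coloured by class; filled points passed adjusted p under 0.05 and ticks mark the value without frankincense replicate 3. Metallothioneins and exporters lie to the right of 0, importers lie on both sides, and SLC39A10 is lowest at -1.65.

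Of 12 tested importers (SLC39A genes), 5 were higher, 2 lower and 5 not called, with a median log2 change of 0.16. The share of the 12 called higher, 41.7%, was not far from the 31.9% of all genes tested, so the count itself sets importers little apart. SLC39A5 passed the filter through the frankincense libraries alone. Among the 11 others, which reached the filter level in all vehicle libraries, 5 were higher and the median was 0.082. SLC39A10, or ZIP10, which brings zinc in across the plasma membrane, fell the most. Its RNA stood at 11.3, 10.6 and 10.7 TPM in vehicle cells and at 5.47, 6.02 and 6.57 TPM after frankincense, with no overlap. In counts it went from totals of 2156 over the vehicle libraries to 682 over the treated ones. The fall was 1.65 ± 0.092 on the log2 scale (edgeR adjusted p = 1.55e-09), 3.14-fold lower, and on the log2(TPM + 1) scale the value was -0.76. The gene (ENSG00000196950) spans 195575977 to 195737702 on chromosome 2.

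The gap between both scales for SLC39A10 goes with a difference in the deposited gene length, which is the mean length of a gene's transcripts weighted by their estimated abundance. That length was 3314, 3074 and 3662 bases in the vehicle libraries and 2594, 2005 and 2414 bases in the treated ones. The means were 3350 ± 296 and 2337 ± 302 bases (SD, n = 3), a change of -30.2% with no overlap. Among 11022 genes with a mean of at least 5 TPM, 1.17% were shorter by at least 20%, and of 21 such genes in the group SLC39A10 was the only one. An exact permutation test, two-sided, gave p = 0.1, the smallest that 3 against 3 libraries allow, or 0.3 after Benjamini-Hochberg adjustment over the 21 genes. SLC39A11, another importer, came next at 2538 ± 74.1 and 2289 ± 151 bases, a change of -9.82%, also with no overlap. MT2A differed by less, at 413 ± 0.63 and 406 ± 0.48 bases, with no overlap. In all, 7 of the 21 genes were shorter with groups that did not overlap and 0 longer. Of the 11022 genes, 1391 (12.6%) were shorter in this way and 932 longer. The change was small in MT2A (-1.73%), SLC30A7 (-1.06%), SLC39A1 (-0.465%) and SLC39A8 (-0.279%), and larger in SLC39A10, SLC39A11 and MT1F (-7.89%). The lengths are estimates by the authors' counting program and not measured isoforms.

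**Figure D4:**
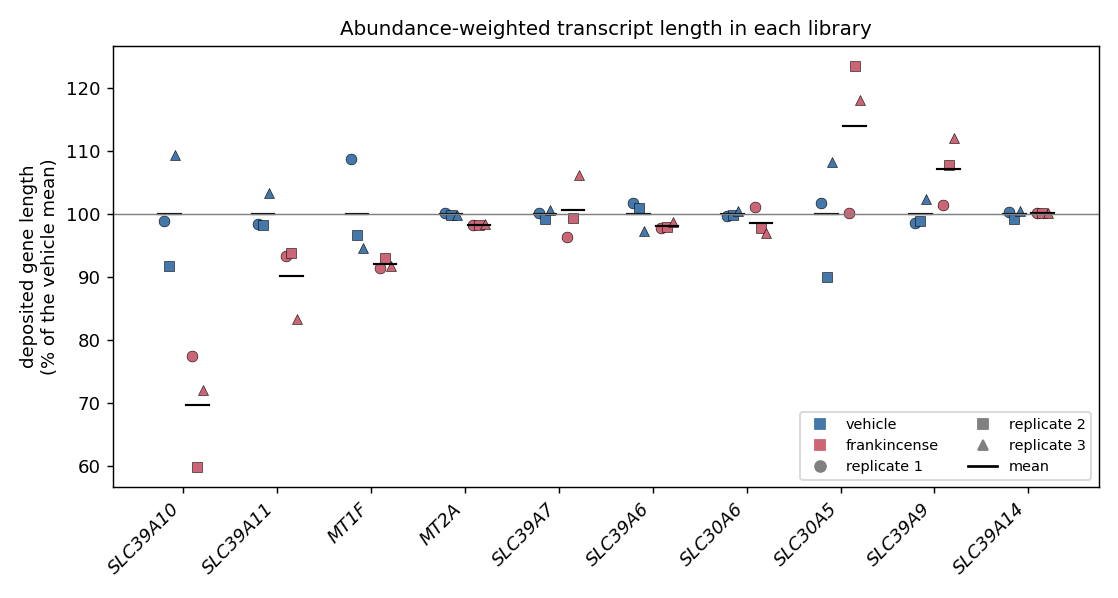
Deposited gene length in each library as a percentage of the vehicle mean, for 10 genes of the group; symbols mark the replicate, colours the group and bars the group mean. The treated libraries of SLC39A10 lie lowest, while SLC39A14 stays near 100% in every library.

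SLC39A8, or ZIP8, which also carries manganese and iron, was lower by the count test. It stood at 14.5, 15.4 and 16.8 TPM under vehicle and at 13.8, 13.2 and 14.3 TPM under frankincense, close but not overlapping. The fall was 0.43 ± 0.066 on the log2 scale (edgeR adjusted p = 5.58e-05). On the log2(TPM + 1) scale the change was -0.17 and the call was lost (limma adjusted p = 0.117).

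The strongest rise among importers was that of SLC39A7, or ZIP7, which releases zinc from the endoplasmic reticulum and Golgi into the cytosol. It stood at 76.0, 72.0 and 72.0 TPM in vehicle cells and at 157.6, 161.01 and 204.0 TPM in treated cells, all above the vehicle values. The rise was 1.01 ± 0.090 (edgeR adjusted p = 2.68e-06), 2.02-fold, and 0.90 without frankincense replicate 3, the highest library. Its deposited counts were not whole numbers, so part of its reads may be divided with other genes. SLC39A7 (ENSG00000112473) lies at 33200445 to 33204439 on chromosome 6. It made up 19.9% of the summed importer TPM under vehicle and 31.1% under frankincense. SLC39A1, a ubiquitous importer of the plasma membrane, led under vehicle with 25.2% and held 19.8% after treatment.

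SLC39A11 went from 12.2, 10.9 and 11.5 TPM to 23.3, 25.9 and 31.7 TPM. With no overlap, it rose by 0.81 ± 0.067 (edgeR adjusted p = 8.47e-08), 1.76-fold. SLC39A6, a relative of SLC39A10 that forms complexes with it, rose by 0.47 ± 0.12 from 22.6 to 27.1 TPM to a range of 36.1 to 52.4 TPM. Its highest library was frankincense replicate 3, without which the value was 0.33. SLC39A13, a vesicle and Golgi transporter needed in connective tissue, rose by 0.36 ± 0.052 and SLC39A14, which carries zinc, iron and manganese, by 0.28 ± 0.082 (edgeR adjusted p = 0.0099). Without frankincense replicate 3 the value of SLC39A14 was 0.20. Across the 6 libraries these genes stood at 35.0 to 61.1 and 37.9 to 68.8 TPM.

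Among the importers that were not called, SLC39A1 was at -0.001 ± 0.062 (edgeR adjusted p = 0.993) and SLC39A3, a plasma membrane importer, at -0.051 ± 0.069. SLC39A9 was at 0.082 ± 0.069. SLC39A4, the intestinal importer mutated in the zinc deficiency disease acrodermatitis enteropathica, was at -0.058 ± 0.16, and at 0.14 without frankincense replicate 3. SLC39A5 was at 0.25 ± 0.47 on 0.14 to 0.97 TPM, at -0.12 without vehicle replicate 1 and at 1.03 without vehicle replicate 2. On the TPM scale SLC39A1 was called higher at 0.25 (limma adjusted p = 0.0474). A missed threshold does not show that these levels were equal. SLC39A12 had 0 counts in all libraries and SLC39A2 1 count in a vehicle library.

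**Figure D5:**
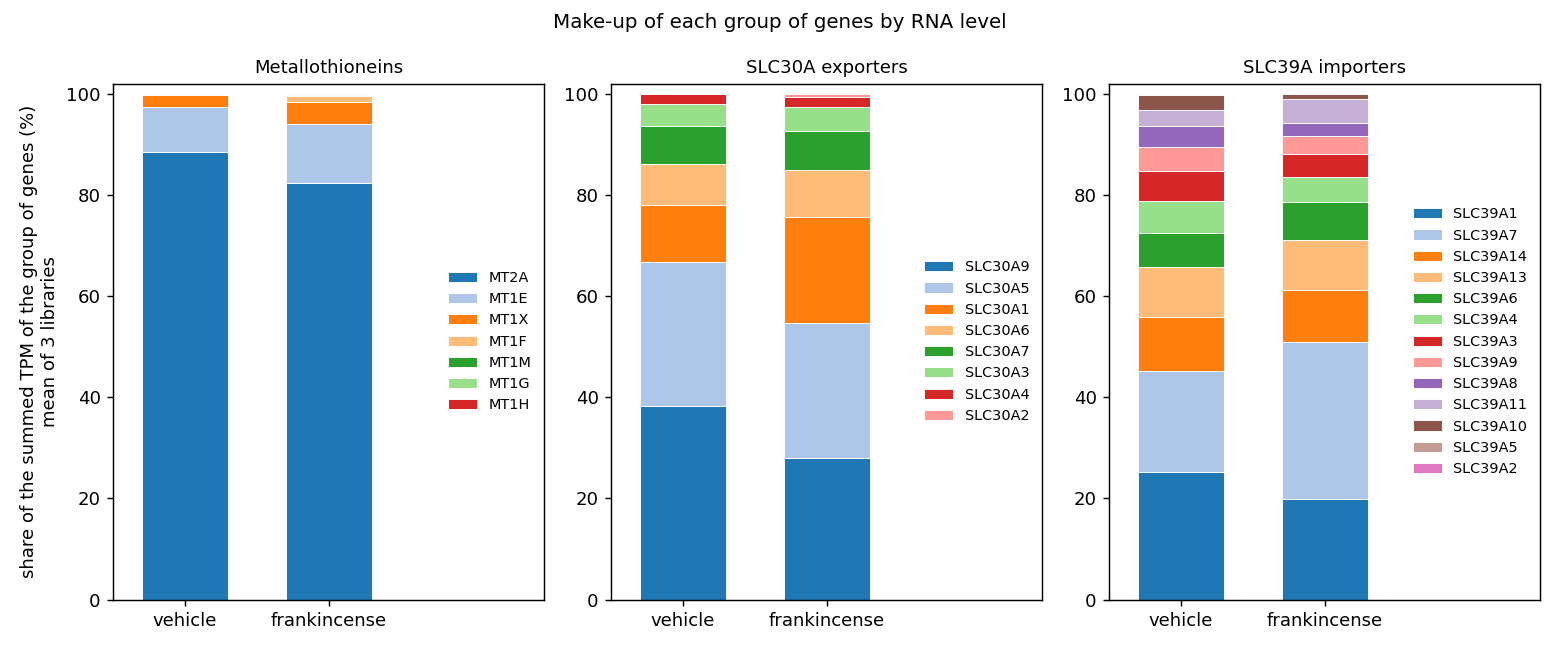
Share of each gene in the summed TPM of its class, as the mean of 3 libraries per group. MT2A takes 88.4% of metallothionein RNA under vehicle and 82.4% under frankincense, SLC30A1 goes from 11.4% to 21.0% of exporter RNA and SLC39A7 from 19.9% to 31.1% of importer RNA.

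Summed over each family, exporters stood at 92.9, 101 and 101 TPM in vehicle cells and at 162.6, 158.8 and 198.7 TPM in treated cells. Importers stood at 372, 358 and 375 TPM and then at 516, 523 and 641 TPM. Both sums were higher in all treated libraries than in all vehicle libraries, on the TPM scale, which runs higher than the count scale.

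MTF1, the zinc sensor that controls metallothionein genes, stood at 3.08, 3.03 and 3.16 TPM in vehicle cells and at 4.25, 4.15 and 4.84 TPM in treated cells. The groups did not overlap. Its rise of 0.27 ± 0.066 (edgeR adjusted p = 0.00248), 1.21-fold, was smaller than those of MT2A, MT1E, MT1X, MT1F and SLC30A1. No activity of the protein was measured. The call was lost when TPM was rescaled without mitochondrial genes (0.27, limma adjusted p = 0.0562).

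Among 9 other genes of zinc handling, 8 were tested, with 6 higher (75%, against 31.9% of all genes tested), 1 lower and 1 not called. The zinc chaperone genes ZNG1A, ZNG1B, ZNG1C, ZNG1E and ZNG1F rose by 0.49 to 0.93, but they are near-identical copies whose reads may be divided between them, so the values are uncertain. With TRPM7 they make up the 6, so the 75% does not stand for 6 separate results. ZNG1F had the largest rise, 0.93 ± 0.13. TRPM7, a channel kinase that passes zinc and magnesium, rose by 0.78 ± 0.054. GPR39, a zinc-sensing receptor, fell by 0.61 ± 0.18 (edgeR adjusted p = 0.00895). With TPM, 6 were higher and 0 lower.

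Of 14 tested copper handling genes, 5 were higher (35.7%, against 31.9% of all genes tested), 2 lower and 7 not called. SLC31A2, a copper transporter, had the largest rise, 0.82 ± 0.32 (edgeR adjusted p = 0.048), but its groups overlapped in CPM and without frankincense replicate 3 the value was 0.38 (adjusted p = 0.155). SLC31A1, the copper importer CTR1, rose by 0.79 ± 0.079. ATOX1, the cytosolic copper chaperone, had the largest fall, 0.63 ± 0.064, and SOD1, a copper and zinc enzyme, fell by 0.54 ± 0.076. Of 15 tested manganese and magnesium transport genes, 8 were higher (53.3%, against 31.9% of all genes tested), 3 lower and 4 not called. CNNM1 rose by 0.81 ± 0.072 and TMEM165, a Golgi manganese and proton transporter, fell by 0.64 ± 0.061. On the TPM scale the counts were 10 higher and 2 lower for copper, and 11 higher and 1 lower for manganese and magnesium.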

How the data were processed

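Libraries were made from 1.5 ug of total RNA with a TruSeq kit, per the labels' protocols; no strand setting is stated, so overlapping genes cannot be separated. STAR and RSEM 1.3.1 with GRCh38 were used, per the submitters' processing notes, and no annotation is named there. The deposited expected counts, per the file headers, hold reads as RSEM assigned them to genes, in part divided between similar genes. The deposited TPM values are adjusted for length and scaled to one common total per library, and the deposited FPKM values were not used.

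Expected counts were rounded and tested with edgeR 4.0.16 (R 4.3.3): filterByExpr (about 0.411 CPM in 3 libraries), TMM, robust glmQLFit, two-sided glmQLFTest, Benjamini-Hochberg adjustment over 16719 genes, called at adjusted p under 0.05. Scripts were tested on simulated data. SEs are the log2 change divided by the square root of F. Symbols were found for 60419 of 60616 identifiers; positions and gene types are from GENCODE 29. Alternatives used DESeq2 1.42.0 and limma 3.58.1. The genes and lists were chosen with earlier results of these data known. Every gene of the group is accounted for; values per library are given for called genes changed at least 1.5-fold and for MTF1, SLC30A1, MT2A, MT1X and MT1E, and in the other metal lists the called genes with the largest rise and fall are named. A few more (SLC31A1, SOD1, TRPM7, the ZNG1 copies) were named after their values were seen.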

Additional observations from a re-analysis of the deposited data

How the results depend on the processing

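Of 27 tested genes, 20 kept direction and call under every alternative that gave them a value, and of 401 alternative values 374 did. With a filter of at least 5 CPM in 3 libraries, 23 genes were tested, and MT1G, MT1M, SLC30A2 and SLC39A5 had no value. With TPM in place of counts, 1 gene of the group was lower in place of 2 (importers likewise 1), at both pseudocounts, and 2474 and 2477 genes of the whole table in place of 5177; 74.8% of calls were higher there against 50.7%. Without mitochondrial genes TPM gave 18 higher and 2 lower. Leaving out single libraries gave 19 to 20 genes higher and 2 lower. Of the 5 uncalled importers 4 changed sign, all but SLC39A9. SLC39A1 was at 0.076 with library size scaling, 0.014 without the filter, 0.245, 0.247 and 0.062 on TPM scales (the last without mitochondrial genes), and from -0.063 (without frankincense replicate 3) to 0.042 (without frankincense replicate 2) on leaving out single libraries. SLC39A3 was at 0.024 with library size scaling and 0.159 and 0.165 with TPM. SLC39A4 was at 0.016 with library size scaling, 0.274, 0.284 and 0.097 on those TPM scales, and from -0.195 (without frankincense replicate 1) to 0.139 (without frankincense replicate 3). SLC39A5 went from -0.118 (without vehicle replicate 1) to 1.027 (without vehicle replicate 2). The cause was not tested. With the replicate block, 20 genes were higher and 2 lower, and 5347 and 5244 over all genes; same-numbered libraries deviated together by correlations of 0.05, 0.10 and 0.04, each library matching its own number best, a hint from the data and not the design. Depth limits genes at 0 counts, such as MT1A.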
